A study of Mus musculus with 12 samples.

Results

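The endothelial glycocalyx genes are 41 genes whose proteins form or shape the sugar-rich coat on the surface of vessel-lining cells, out of 27825 genes measured. They were taken by gene symbol. All 41 were found in the table, and 40 passed a minimum mean of 10 normalized counts over the 12 libraries and were tested among 22238 genes. Has2, a hyaluronan synthase, did not pass and is described by its values. By role the list holds 4 syndecans, 4 glypicans, 2 basement membrane proteoglycans, 5 enzymes that start a sugar chain on its protein, 4 that lengthen heparan sulfate, 8 that modify it and 3 that trim it. The other members are 4 chondroitin sulfate enzymes, 2 hyaluronan synthases, 2 hyaluronidases, 1 hyaluronan receptor and 2 sialomucins.

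RNA was sequenced in bulk from sorted endothelial cells of mesentery, the membrane that holds the gut and its vessels, and of epididymal fat, a visceral fat pad of male mice. All mice were male and carried ROSA26-eYFP+/+ and Cdh5-CreERT2+, so that tamoxifen switches on a yellow fluorescent protein in cells in which the promoter of Cdh5, the gene of vascular endothelial cadherin, is active. That promoter is active in the endothelium of blood and of lymph vessels, so the sort does not separate them. All groups shared a tamoxifen diet that began at 6 weeks of age and lasted 2 weeks. From 8 weeks of age one arm received normal chow with 5.8% fat and the other a diet of 60% fat, kept up for 12 to 13 weeks; these are called chow and high fat below. Each sample pooled tissue from 6 mice, which was digested with Liberase in the presence of actinomycin D, freed of red blood cells by lysis, and sorted for the fluorescent protein. The 12 libraries form 4 groups of 3, called A, B and C: mesentery on chow or high fat, and epididymal fat on chow or high fat. The protocol speaks of 2 independent replicates and the titles of 3 letters, so n = 3 counts libraries, and p-values measure the spread between these libraries. The series title speaks of lost endothelial heterogeneity in arteries on an obesogenic diet. The comparisons made here are diet within each tissue, tissue on each diet, and the difference between the diet effects.

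The glycocalyx is built on core proteins such as the membrane-spanning syndecans, the lipid-anchored glypicans and the secreted perlecan and agrin, which carry long sulfated sugar chains. Enzymes of the Golgi begin the chain, extend it and place sulfate groups that decide which growth factors, chemokines and enzymes it binds, while sulfatases and heparanase edit it outside the cell. Hyaluronan, a chain without a core protein, is spun out at the cell surface and held by CD44, and the sialomucins endomucin and podocalyxin add negatively charged sugars. In endothelium this layer senses flow, limits leakage and keeps leukocytes from the vessel wall.

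Libraries held between 8348897 and 25397963 reads in the listed genes, and 3 reads correspond to between 2.12 and 4.22 normalized counts, the floor used below. That floor covers counting error only. The 10 endothelial markers (Pecam1, Cdh5, Kdr and others) were detected in all 12 libraries. Their sum was 82397 to 126285 normalized counts in mesentery on chow, 76022 to 96100.1 in mesentery on high fat, 70219.7 to 89136 in chow-fed epididymal fat and 41740.4 to 80098 in epididymal fat on high fat. Transcripts of other cell types differed between the groups. In the same order of groups, the sum of 10 macrophage markers was 1534 to 7572, 4429.6 to 23824, 5691 to 82913 and 133088 to 333534, with Adgre1 at 0 in mesentery replicate B on chow. The sum of 8 fibroblast markers was 1177 to 1536, 782 to 2278, 3475 to 6998 and 18335 to 21382. The sum of 8 smooth muscle and pericyte markers was 1365 to 1641, 1716 to 4012, 12915 to 24113 and 6363 to 12538. The sum of 6 adipocyte markers was 4474 to 7437, 4891 to 10087, 61832 to 83408 and 6406 to 16116. The sum of 6 lymphatic endothelial markers was 1315 to 12926, 2793 to 4532, 21887 to 35903 and 11342 to 17529.7, with Prox1 at 0 in mesentery replicate A on high fat. In epididymal fat against mesentery, 3 of 10 macrophage markers, 6 of 8 fibroblast, 7 of 8 smooth muscle and pericyte, 6 of 6 adipocyte and 4 of 6 lymphatic markers were higher on chow. On high fat 7 of 10, 8 of 8, 4 of 8, 1 of 6 and 0 of 6 of these were higher. Of the 6 lymphatic markers, 1 was called lower on chow and 1 on high fat. Of the endothelial markers, 4 were lower and 1 higher on chow, and 6 lower and 1 higher on high fat. Of 7 mesothelial markers found, 6 were tested and 4 were higher on chow and 1 on high fat, with a sum of at most 784 normalized counts and Wt1 at 0 in 5 mesentery libraries. No T and B cell marker passed the test, all 3 haemoglobin genes found were higher in epididymal fat on both diets, and all 6 pancreatic acinar markers were lower there. The acinar sum was 42891 to 271010 in mesentery, which lies beside the pancreas, and at most 554 in epididymal fat. Mesentery replicate C on chow had the fewest reads of all libraries, 8348897. Within its group it had the highest lymphatic sum, 12926, the highest macrophage sum, 7572, and the lowest acinar sum, 42891. The part of depth and of these cells in its glycocalyx values was not tested. In bulk samples, fewer cells of a type and less RNA per cell cannot be told apart, and the part of other cell types in the glycocalyx results was not tested.

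**Figure D1:**
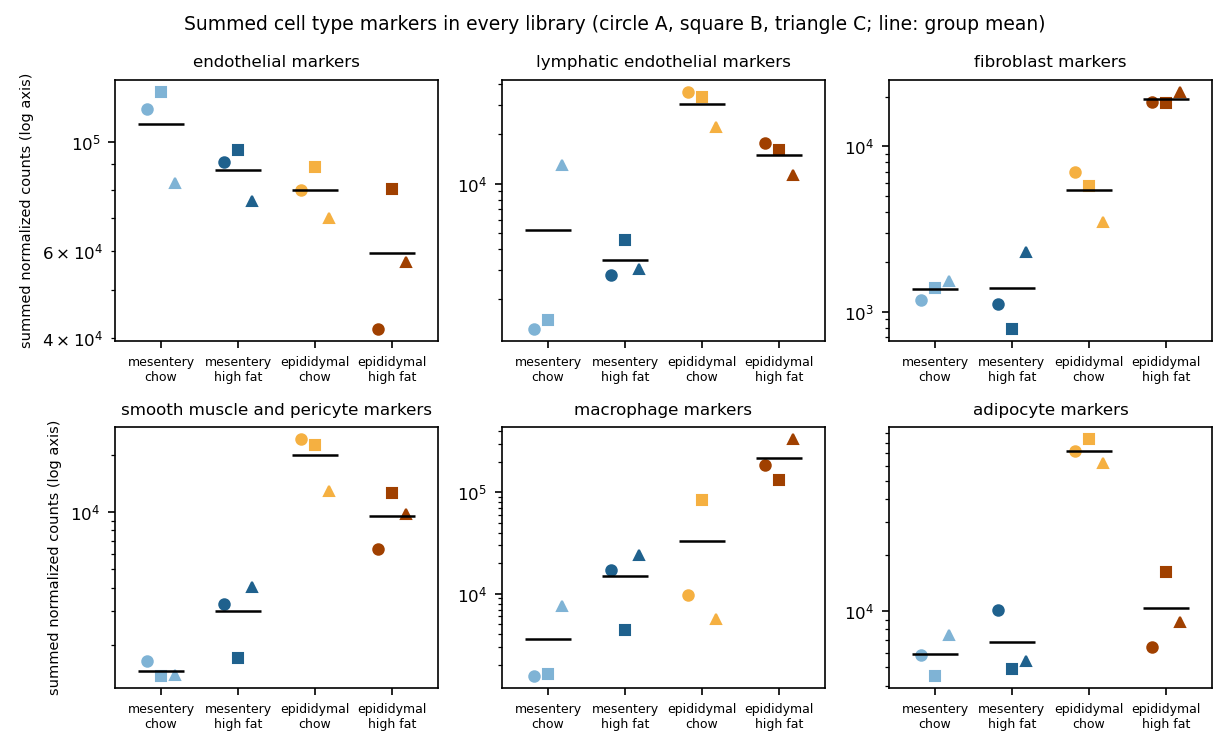
Summed normalized counts of 6 marker lists (log axis) in each of the 12 libraries, with circles, squares and triangles for replicates A, B and C and a line at the group mean. The macrophage sum reached 82913 in epididymal replicate B on chow and 133088 to 333534 in epididymal fat on high fat, and the endothelial sum was lowest, at 41740.4, in epididymal replicate A on high fat.

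The glycocalyx genes spanned a wide range of levels, compared here as mean normalized counts per kilobase of exon. Emcn, which encodes the sialomucin endomucin, stood first in every group, with 6576 in mesentery on chow, 5336 in mesentery on high fat, 2006 in chow-fed epididymal fat and 960.1 in epididymal fat on high fat. Podxl, which encodes podocalyxin, came next in every group, at 2182, 1595, 623 and 394 per kilobase in the same order. The step from Podxl to the next gene shrank from mesentery to epididymal fat on high fat. In mesentery on chow the third gene was Hyal2, a hyaluronidase anchored at the cell surface, at 433 per kilobase, and in epididymal fat on high fat Hyal2 had 340.0. Hs3st1, which makes the heparan sulfate form that binds antithrombin, had 364, 331, 380.0 and 262 per kilobase in the 4 groups. Among proteoglycan cores the leading gene in mesentery on chow was Agrn at 109 per kilobase, close to Hspg2 at 103. In epididymal fat on chow it was Gpc3, the gene of glypican 3, at 432 per kilobase, and on high fat Sdc1 at 211, close to Sdc3 at 208. The hyaluronan synthases Has2 and Has3 and the 6-O-sulfotransferase Hs6st2 were all under 10 per kilobase in every group, and were the 3 lowest members in all groups but mesentery on chow. There Has2 and Has3 were lowest, at 0 and 2.74, and Hs6st2, at 5.17, lay above Gpc6, Gpc1, Chpf and Hpse.

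**Figure D2:**
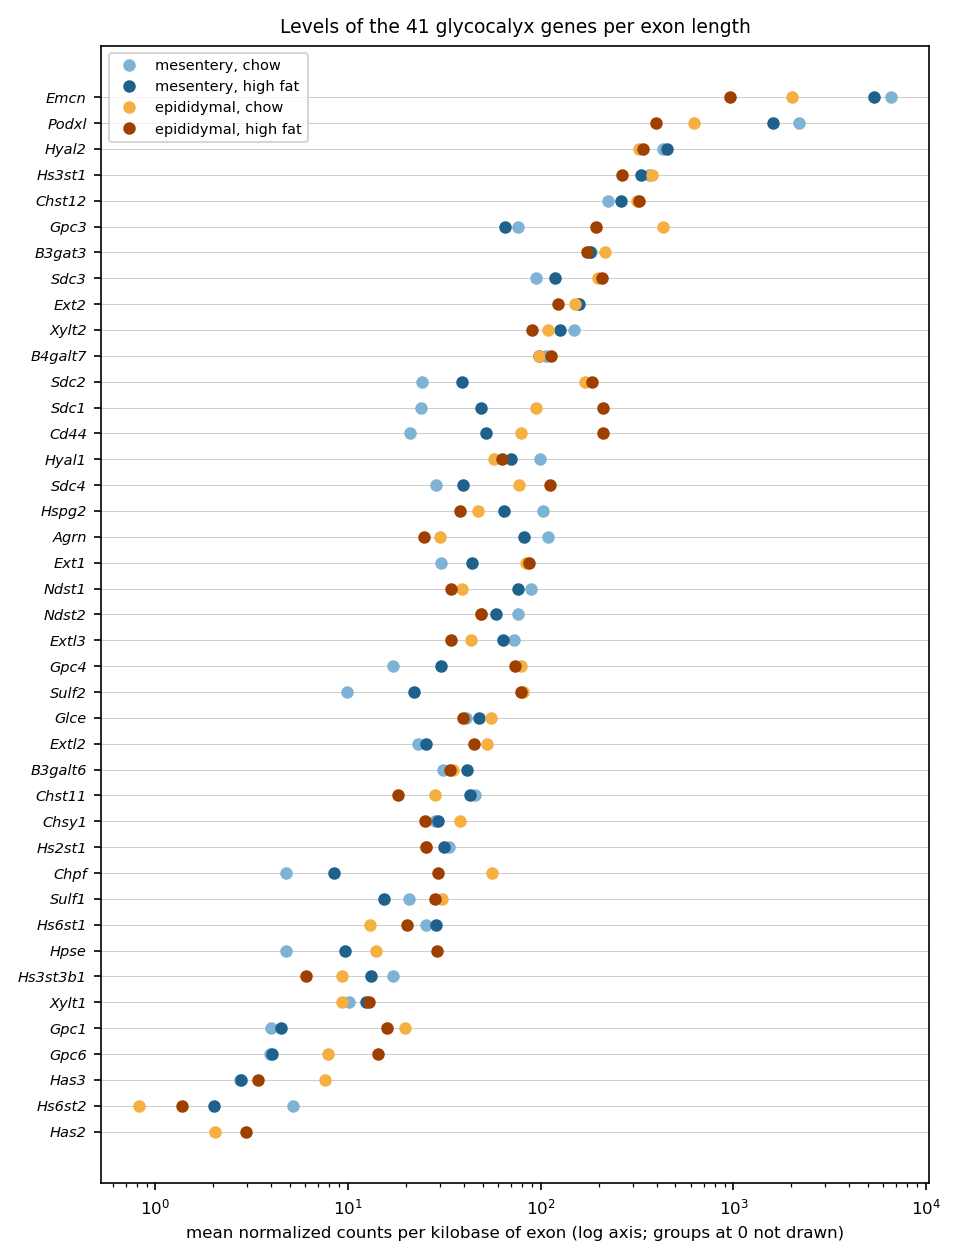
Mean normalized counts per kilobase of exon (log axis) of the 41 glycocalyx genes in the 4 groups, each point the mean of 3 libraries and groups at 0 left out. Emcn and Podxl lie to the right of all other members, with mesentery above epididymal fat, and Has2 has points for epididymal fat alone.

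Tissue was the comparison in which glycocalyx genes differed. On chow 9 of 40 members were higher and 5 lower in epididymal fat than in mesentery, where 7.32% and 5.47% of all genes tested were called higher and lower. With high fat feeding 5 of 40 were higher and 6 lower, where 4.91% and 3.43% of all genes were called. The median log2 difference of the members was 0.27 on chow, against -0.08 over all genes tested, and -0.08 on high fat, against 0.06. All 9 members called on both diets kept their direction, which is 9 of the 14 called on chow and 9 of the 11 called on high fat. The syndecans Sdc1 and Sdc2, the chain-lengthening enzyme Ext1, the sulfatase Sulf2 and the hyaluronan receptor Cd44 were higher in epididymal fat on both diets. Agrn, the sulfating enzyme Ndst1 and the sialomucins Podxl and Emcn were lower on both. Sdc3, Gpc3, Gpc4 and Chpf were called higher, and Hspg2 lower, on chow alone, and Extl3 and Chst11 were called lower on high fat alone. The difference between the diets was tested as an interaction, and no member passed it.

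The scaling of the libraries bears on these counts. When the libraries were rescaled to equal levels of the endothelial markers, 10 members were higher and 5 lower on chow, where 8.9% and 3.26% of all genes were called, and 13 higher and 3 lower on high fat, where 17.2% and 1.5% were. The 3 still lower on high fat were Agrn, Podxl and Emcn. That scaling uses the geometric mean of 10 markers, of which 4 were called lower in epididymal fat on chow. Cldn5 went the other way, at 555, 722 and 1383 normalized counts in mesentery and 15133, 20509 and 12312 in epididymal fat on chow. The scaling moved the median log2 difference of all genes on chow only from -0.08 to 0.06, and the weight of Cldn5 in it was not tested. On high fat it moved that median from 0.06 to 0.60, and scaling to equal totals moved it to -0.12. The share of called genes that were higher in epididymal fat was 57.2% on chow and 58.9% on high fat. With equal totals these shares were 67.3% and 35.3%, and with equal endothelial markers 73.2% and 92.0%. No member called in a tissue comparison changed direction under either scaling.

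**Figure D3:**
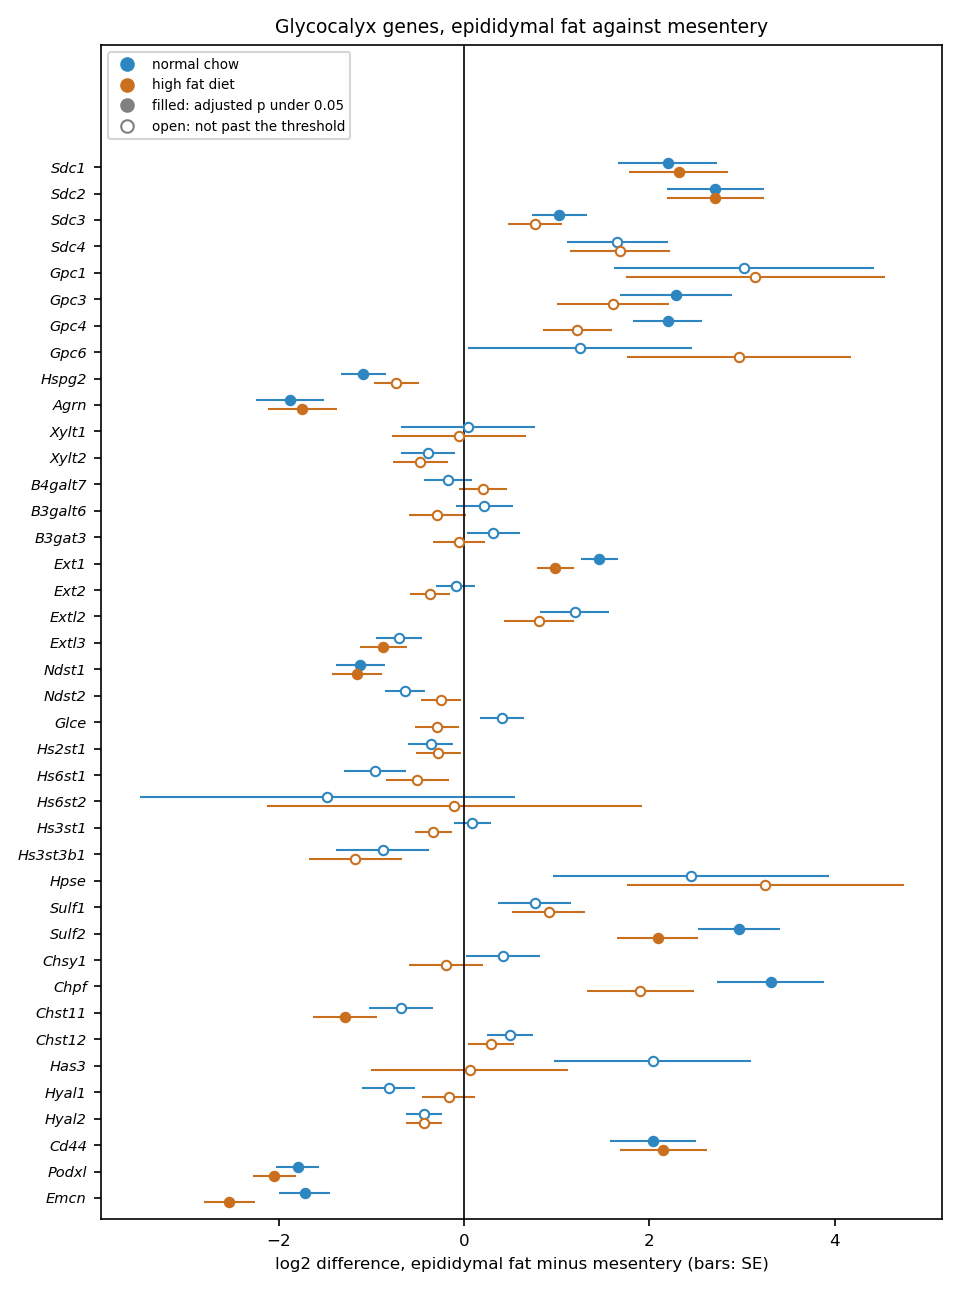
Log2 difference between epididymal fat and mesentery (x axis, bars are 1 SE) for the 40 tested glycocalyx genes on chow and on high fat, from 3 libraries a group, with filled points for an adjusted p under 0.05. Syndecans and glypicans lie above 0 on both diets, and Hspg2, Agrn, Ndst1, Podxl and Emcn below 0.

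RefSeq promoter windows of mouse build GRCm38.p6, 250 bases before to 50 after a gene's start, were available for 30 of the 41 members and for 11 of the 16 called in a tissue comparison. The windows of 3 genes that differed on both diets are shown because they set a low-GC promoter of a member that was lower in epididymal fat beside GC-rich promoters of a lower and a higher member. Capitals mark matches to the GC box GGGCGGG, the letters bound by SP1-type factors, on either strand, and overlapping matches run together. The Emcn window is chr3:137340828-137341127 on the plus strand, the Agrn window chr4:156197439-156197738 on the minus strand and the Sdc1 window chr12:8771146-8771445 on the plus strand, each written 5′ to 3′.
Emcn: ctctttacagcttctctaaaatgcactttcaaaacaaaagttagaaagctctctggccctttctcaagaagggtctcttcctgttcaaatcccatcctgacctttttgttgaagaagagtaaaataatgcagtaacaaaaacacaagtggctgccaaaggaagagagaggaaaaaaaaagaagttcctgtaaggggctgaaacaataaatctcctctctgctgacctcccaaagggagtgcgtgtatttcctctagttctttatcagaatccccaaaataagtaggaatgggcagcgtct
Agrn: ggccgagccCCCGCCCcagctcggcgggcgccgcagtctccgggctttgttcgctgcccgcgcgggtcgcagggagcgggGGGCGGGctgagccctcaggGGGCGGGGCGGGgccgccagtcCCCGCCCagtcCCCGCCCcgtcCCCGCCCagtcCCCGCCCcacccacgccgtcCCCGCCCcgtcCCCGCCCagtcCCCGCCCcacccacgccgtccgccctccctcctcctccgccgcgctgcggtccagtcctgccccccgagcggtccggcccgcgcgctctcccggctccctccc
Sdc1: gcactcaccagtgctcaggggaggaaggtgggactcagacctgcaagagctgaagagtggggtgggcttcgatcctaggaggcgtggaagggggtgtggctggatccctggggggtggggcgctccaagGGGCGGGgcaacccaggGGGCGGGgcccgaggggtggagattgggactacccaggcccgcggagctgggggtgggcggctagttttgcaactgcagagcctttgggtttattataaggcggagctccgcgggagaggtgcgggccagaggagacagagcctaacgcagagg

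The Agrn window shown held 11 GC boxes and the Sdc1 window 2, while the Emcn window held none. A second Agrn window, not shown, held 1. GC content was 83.3% for Agrn, 66.3% for Sdc1 and 41% for Emcn. The median over the members with a window was 66.7%, against 52.7% over all 32851 windows. Counts for members take the first listed window of each gene, while the shares of all windows include further windows of a gene. Across members, 20 of 30 windows (66.7%) held a GC box, against 25.6% of all windows and 33.9% of the 21263 windows of coding genes. It was present in 5 of 7 windows of members called higher in epididymal fat (Chpf, Sulf2, Sdc3, Sdc1 and Gpc3) and in 3 of 4 of those called lower (Hspg2, Agrn and Chst11). The ETS motif CCGGAAG was in 2 of 30 member windows (6.67%) and in 8.86% of all windows. The TATA box TATAAA was in 2 of 30, against 13.6% of all windows, with Sulf2 among the called members. The E-box CACGTG was in 2 of 30, against 7.15%, and the GATA motif AGATAAG in 1 of 30, the window of Cd44, against 3.04%. These motifs were searched on both strands, and a match describes letters only.

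Both sialomucins were lower in epididymal fat. Emcn (ENSMUSG00000054690) encodes endomucin, a mucin-like protein of capillary and venous endothelium. It had 38353, 37697 and 30652 normalized counts in mesentery on chow (in the order A, B, C) and 24087, 30946 and 31561 on high fat. In epididymal fat it had 8903, 11309.9 and 12341 on chow and 3554, 7379.6 and 4647 on high fat. Every epididymal library lay below every mesentery library, and the 3 epididymal libraries on high fat lay below the 3 on chow. The log2 difference between epididymal fat and mesentery was -1.72 (SE 0.28, 0.304-fold, adjusted p 0.00130) on chow and -2.53 (SE 0.28, 0.173-fold, adjusted p 0.000103) on high fat. With libraries equalised on endothelial markers it was -1.57 and -1.98, both past the threshold.

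Podxl (ENSMUSG00000025608) encodes podocalyxin, the sialomucin first known from kidney podocytes, which coats the luminal face of endothelial cells. It had 13118, 14031 and 8776 normalized counts in mesentery on chow and 8432, 8787 and 9034 on high fat. The epididymal libraries had 3237, 2918 and 4100.3 on chow and 1669, 2771 and 2050.4 on high fat. The tissues did not overlap on either diet, and mesentery replicate C on chow was the low library of its group. The log2 difference between tissues was -1.79 (SE 0.23, 0.288-fold, adjusted p 0.000278) on chow and -2.05 (SE 0.23, 0.242-fold, adjusted p 0.000140) on high fat. Emcn and Podxl kept both calls in every alternative run. Of the 10 endothelial markers, 4 were called lower and 1 higher in epididymal fat on chow, and 6 lower and 1 higher on high fat.

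All 4 syndecans, the membrane-spanning carriers of heparan sulfate, had higher means in epididymal fat than in mesentery on both diets, and under both other scalings. Of the 4, 3 passed the test on chow and 2 on high fat, where 12.8% and 8.34% of all genes did. Sdc1 (ENSMUSG00000020592) encodes syndecan 1, whose shed ectodomain serves as a blood marker of glycocalyx loss. It had 53.5, 46.6 and 173 normalized counts in mesentery on chow and 235, 66.5 and 258 on high fat. Epididymal values were 395, 431 and 253 on chow and 698, 747 and 970.4 on high fat. Mesentery replicate C on chow and replicate B on high fat stood apart from the other libraries of their groups, and the tissues did not overlap on either diet. The log2 difference was 2.20 (SE 0.53, 4.58-fold, adjusted p 0.0155) on chow and 2.31 (SE 0.53, 4.98-fold, adjusted p 0.0171) on high fat. The chow call was lost without mesentery replicate A or B or epididymal replicate A or B, with adjusted p 0.0712, 0.0651, 0.0652 and 0.0693. The call on high fat was lost without mesentery replicate B (log2 1.69, adjusted p 0.0747) or epididymal replicate C (0.0864).

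Sdc2 (ENSMUSG00000022261), the gene of syndecan 2, had 75.2, 79.7 and 100.0 normalized counts in mesentery on chow and 52.4, 59.6 and 298 on high fat. Its epididymal values were 879.5, 549 and 359 on chow and 652, 667 and 623 on high fat. Mesentery replicate C on high fat was several times above the other mesentery libraries of that diet, yet below every epididymal library. The log2 difference was 2.71 (SE 0.52, 6.55-fold, adjusted p 0.00428) on chow and 2.71 (SE 0.52, 6.55-fold, adjusted p 0.00646) on high fat, and no alternative ended either call. Sdc3, the gene of syndecan 3, averaged 567 ± 119.9 normalized counts in mesentery against 1185 ± 372 in epididymal fat on chow (SD, n = 3), a log2 difference of 1.03 (SE 0.29, 2.04-fold, adjusted p 0.0346). That call was lost in edgeR (adjusted p 0.0730) and without mesentery replicate A, B or C or epididymal replicate A or B, with adjusted p 0.0639, 0.0598, 0.0971, 0.140 and 0.154. In mice on high fat Sdc3 averaged 708 ± 106 and 1246 ± 415, a log2 difference of 0.77 (SE 0.29, adjusted p 0.138). Sdc4, the gene of syndecan 4, a focal adhesion proteoglycan, averaged 72.7 and 101 in mesentery against 197 and 285 in epididymal fat, on chow and on high fat. Its log2 differences of 1.65 (SE 0.54, adjusted p 0.0639) and 1.69 (SE 0.54, adjusted p 0.0775) did not pass. On chow 3 of 10 macrophage, 6 of 8 fibroblast and 7 of 8 smooth muscle and pericyte markers were called higher in epididymal fat. On high fat these were 7 of 10, 8 of 8 and 4 of 8. The macrophage sums of the tissues overlapped on chow, and the part of these cells in the syndecan values was not tested.

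The 4 glypicans, heparan sulfate carriers held by a lipid anchor, had log2 differences above 0 on both diets and under both other scalings. Of these, 2 of 4 were called on chow and 0 of 4 on high fat, where 12.8% and 8.34% of all genes were called. On high fat all 4 had an unadjusted p under 0.05, as did 21% of all genes. Gpc3 averaged 205 ± 95.0 normalized counts in mesentery on chow and 1162 ± 819.5 in epididymal fat. The epididymal libraries spread widely, at 2015, 1089 and 381, and the log2 difference was 2.29 (SE 0.60, 4.88-fold, adjusted p 0.0245). Without mesentery replicate A or B or epididymal replicate A or B the adjusted p was 0.0830, 0.0891, 0.124 and 0.0890. Gpc4, the gene of glypican 4, averaged 45.4 ± 10.7 in mesentery and 208 ± 20.8 in epididymal fat on chow, a log2 difference of 2.20 (SE 0.37, 4.59-fold, adjusted p 0.00178) that no alternative ended. With high fat feeding Gpc4 had a log2 difference of 1.22 (SE 0.37, adjusted p 0.0626) and Gpc3 of 1.61 (SE 0.60, adjusted p 0.133). Gpc1, the gene of glypican 1, a flow-sensing candidate in endothelium, had 4.55, 1.79 and 54.9 normalized counts in mesentery on chow and 196, 84.3 and 26.6 in epididymal fat. Those groups overlapped through mesentery replicate C, and the log2 difference was 3.02 (SE 1.40, adjusted p 0.197).

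Gpc6, the gene of glypican 6, was among the 4 members with the largest diet difference in mesentery. It had 22.8, 6.27 and 46.5 normalized counts in mesentery on chow and 0, 26.3 and 51.4 on high fat. In epididymal fat it had 29.0, 48.7 and 73.5 on chow and 138, 74.3 and 64.4 on high fat. The mesentery groups overlapped, with replicate A on high fat at 0 reads, and the diet difference there was -0.84 (SE 1.21, adjusted p 0.970).

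The secreted basement membrane proteoglycans went the other way. Agrn (ENSMUSG00000041936) encodes agrin, a heparan sulfate proteoglycan of basement membranes. It had 1141, 1317 and 591 normalized counts in mesentery on chow and 747, 948 and 592 on high fat. The epididymal libraries had 374, 313 and 153 on chow and 173, 304 and 210.2 on high fat. The tissues did not overlap, and the C libraries on chow were low in both tissues. The log2 difference was -1.87 (SE 0.37, 0.273-fold, adjusted p 0.00477) on chow and -1.74 (SE 0.37, 0.299-fold, adjusted p 0.0113) on high fat. The second call was lost without mesentery replicate B (adjusted p 0.0647) or epididymal replicate C (0.0542). Hspg2, the gene of perlecan, averaged 1475 ± 465 in mesentery and 676 ± 125 in epididymal fat on chow, a log2 difference of -1.09 (SE 0.24, 0.47-fold, adjusted p 0.0100). Without mesentery replicate A or epididymal replicate A it did not pass (adjusted p 0.0556 and 0.0559). In mice on high fat Hspg2 averaged 918 ± 181 and 548 ± 36.9, a log2 difference of -0.73 (SE 0.24, adjusted p 0.0875).

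The enzymes that begin a chain did not differ between tissues by the test. These are the xylosyltransferases Xylt1 and Xylt2, the galactosyltransferases B4galt7 and B3galt6 and the glucuronosyltransferase B3gat3, which together build the linker between protein and sugar chain. Their log2 differences ranged from -0.39 (Xylt2) to 0.32 (B3gat3) on chow and from -0.47 (Xylt2) to 0.21 (B4galt7) on high fat. All 5 had overlapping groups on both diets, as did most of the 22238 genes tested. Over those genes the groups did not overlap for 3549 higher and 2832 lower on chow, and for 3366 and 2500 on high fat.

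Of the polymerases that lengthen heparan sulfate, Ext1 was higher in epididymal fat. Ext1 (ENSMUSG00000061731) encodes exostosin 1, which adds the alternating sugars of the chain as a complex with exostosin 2. It had 235, 281 and 219.6 normalized counts in mesentery on chow and 422, 281 and 367 on high fat. Epididymal values were 703, 729.8 and 588 on chow and 626, 711 and 760.2 on high fat. The tissues did not overlap, and the epididymal libraries of the 2 diets overlapped in range. The log2 difference was 1.46 (SE 0.20, 2.74-fold, adjusted p 0.000405) on chow and 0.98 (SE 0.20, 1.98-fold, adjusted p 0.00867) on high fat, the latter lost without epididymal replicate C (adjusted p 0.0535). Its partner Ext2 averaged 1145 and 1101 in mesentery and epididymal fat on chow, and 1156 and 904 on high fat. The Ext2 log2 differences were -0.09 (SE 0.21, adjusted p 0.846) on chow, a sign that flipped under both other scalings, and -0.37 (SE 0.21, adjusted p 0.378) on high fat, which flipped with equal endothelial markers. Extl2, a related transferase that can stop chain growth, had log2 differences of 1.19 (SE 0.37, adjusted p 0.0537) and 0.81 (SE 0.37, adjusted p 0.239), without overlap between tissues but not past the threshold. Extl3, which adds the first glucosamine of a heparan sulfate chain, was called lower on high fat alone, at 384 against 208 normalized counts and a log2 difference of -0.87 (SE 0.25, 0.547-fold, adjusted p 0.0498). The Extl3 call was lost without any 1 of the 6 libraries compared (adjusted p 0.0781 to 0.185), without the filter on low values (0.0611), in edgeR (0.110), and with equal endothelial markers (log2 -0.32, adjusted p 0.500).

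Among the 8 enzymes that modify heparan sulfate, 1 was called, on both diets, where 12.8% of all genes were called on chow and 8.34% on high fat. Ndst1 (ENSMUSG00000054008) encodes the enzyme that removes acetyl groups and adds the first sulfates, on which later sulfation depends. It had 911, 842 and 443 normalized counts in mesentery on chow and 767, 575 and 557 on high fat. Its epididymal values were 329.7, 347 and 290.0 on chow and 253, 351 and 249 on high fat. Tissues did not overlap, and mesentery replicate C on chow, at the low end of its group, was nearest to the epididymal libraries. The log2 difference was -1.12 (SE 0.27, 0.461-fold, adjusted p 0.0149) on chow and -1.16 (SE 0.27, 0.449-fold, adjusted p 0.0183) on high fat. The chow call was lost without mesentery replicate A or B (adjusted p 0.0785 and 0.0626). The call on high fat was lost without mesentery replicate A or B or epididymal replicate A or C (0.0768, 0.0540, 0.0515 and 0.0890), in edgeR (0.0566) and with equal endothelial markers (log2 -0.60, adjusted p 0.0958). On high fat all 8 had log2 differences below 0, as did 10449 of all 22238 genes. Of the 8, 6 (Ndst2, Glce, Hs2st1, Hs6st1, Hs6st2 and Hs3st1) turned above 0 with equal endothelial markers. On chow 6 of 8 were below 0, as were 11821 of all genes. Hs6st1, a 6-O-sulfotransferase, had -0.96 (SE 0.34, adjusted p 0.0832) on chow, and Ndst2, the second N-sulfating enzyme, -0.64 (SE 0.22, adjusted p 0.0750). Hs3st3b1, a 3-O-sulfotransferase, averaged 84.4 and 45.4 normalized counts on chow and 64.6 and 29.8 on high fat. Hs6st2 was at 0 in 4 of the 12 libraries and at 115 in mesentery replicate C on chow, so its difference rests on single libraries.

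The enzymes that edit finished heparan sulfate had log2 differences above 0 on both diets, and Sulf2 was called on both. Sulf2 (ENSMUSG00000006800) encodes an extracellular sulfatase that strips 6-O-sulfates and so changes growth factor binding. It had 60.4, 64.5 and 49.3 normalized counts in mesentery on chow and 72.0, 66.5 and 247 on high fat. In epididymal fat it had 589, 514 and 313 on chow and 514, 330.3 and 549 on high fat. Mesentery replicate C on high fat was the highest mesentery library and still lay below all epididymal libraries. The log2 difference was 2.96 (SE 0.44, 7.78-fold, adjusted p 0.000751) on chow and 2.09 (SE 0.44, 4.25-fold, adjusted p 0.0114) on high fat. The second call was lost without mesentery replicate A or B or epididymal replicate C (adjusted p 0.0509, 0.0632 and 0.0661) and in the libraries numbered 50 to 53 alone (1.72, adjusted p 0.0625). Its paralogue Sulf1 had log2 differences of 0.76 (SE 0.39, adjusted p 0.257) and 0.91 (SE 0.39, adjusted p 0.198). Hpse, the gene of heparanase, which cuts the chains, had 0 reads in mesentery replicate B on both diets, and its log2 differences of 2.45 (SE 1.49, adjusted p 0.348) and 3.25 (SE 1.49, adjusted p 0.234) carried a wide error.

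Chondroitin sulfate, the other sulfated chain of the coat, was represented by 4 enzymes. Chpf, a chondroitin polymerising factor, averaged 18.3 ± 5.83 normalized counts in mesentery against 214 ± 137 in epididymal fat on chow. That log2 difference, 3.31 (SE 0.58, 9.90-fold, adjusted p 0.00223), was the largest among the called members, and no alternative ended the call. With high fat feeding Chpf averaged 32.5 ± 18.1 and 114 ± 28.8, a log2 difference of 1.90 (SE 0.58, adjusted p 0.0627). Chst11, which adds 4-O-sulfate to chondroitin, averaged 237 ± 55.0 in mesentery and 101 ± 38.0 in epididymal fat on high fat, a log2 difference of -1.28 (SE 0.35, 0.41-fold, adjusted p 0.0370). The Chst11 call was lost without mesentery replicate A or B or epididymal replicate A or C (adjusted p 0.136, 0.0977, 0.112 and 0.0874), in edgeR (0.118), in the libraries numbered 50 to 53 alone (log2 -0.76, adjusted p 0.0670) and with equal endothelial markers (log2 -0.74, 0.0961). On chow the Chst11 log2 difference was -0.68 (SE 0.35, adjusted p 0.249). Chsy1, a chondroitin synthase, and Chst12, another 4-O-sulfotransferase, were not called, and Chst12 was the most abundant of the 4 per kilobase, at 222 to 324.

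Of the 4 hyaluronan members tested, 1 was called, Cd44, on both diets, where 12.8% of all genes were called on chow and 8.34% on high fat. Cd44 (ENSMUSG00000005087), the main hyaluronan receptor, is carried by activated endothelium and abundantly by leukocytes. It had 107, 69.0 and 251 normalized counts in mesentery on chow and 338, 172 and 542 on high fat. The epididymal libraries had 403, 772 and 422 on chow and 1328, 1202 and 1733 on high fat. The tissues did not overlap on either diet, and within epididymal fat the high fat libraries lay above the chow libraries. The log2 difference between tissues was 2.04 (SE 0.47, 4.11-fold, adjusted p 0.0117) on chow and 2.15 (SE 0.47, 4.43-fold, adjusted p 0.0130) on high fat. The chow call was lost without mesentery replicate B (0.0515) or epididymal replicate B (log2 1.74, adjusted p 0.0644), and the other without mesentery replicate B (0.0703) or epididymal replicate C (0.0710). The macrophage marker sum was 5691 to 82913 normalized counts in epididymal fat on chow and 133088 to 333534 on high fat, against 1534 to 7572 and 4430 to 23824 in mesentery, and was highest in the same epididymal library as Cd44 on either diet. The part of these cells in the Cd44 values was not tested.

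Has2 (ENSMUSG00000022367), a hyaluronan synthase of endothelial and stromal cells, had 0 reads in all 6 mesentery libraries. Epididymal values were 14.9, 7.82 and 3.06 normalized counts on chow and 14.6, 10.7 and 12.0 on high fat, from 3 to 19 reads a library. Its observed mean in epididymal fat was 2.49-fold the mesentery floor of 3 reads a library on chow and 3.77-fold on high fat. These ratios leave out counting error in epididymal fat, where replicate C on chow had only 3 reads, so they are not lower bounds. The strand setting of the read counting is not given in the sources used here, so reads of the antisense transcript at Has2 cannot be told from its own. Has3, another synthase, had 29.6, 21.5 and 1.41 normalized counts in mesentery on chow and 22.4, 24.9 and 5.93 on high fat. In epididymal fat Has3 had 62.7, 45.2 and 37.8 on chow and 5.62, 44.6 and 14.9 on high fat. The tissues did not overlap on chow but did on high fat, and the log2 differences were 2.03 (SE 1.06, adjusted p 0.259) and 0.06 (SE 1.06, adjusted p 0.991). The hyaluronidases Hyal1 and Hyal2 were not called. Hyal2 averaged 1425 ± 119.7 in mesentery and 1069 ± 221 in epididymal fat on chow, a log2 difference of -0.43 (SE 0.19, adjusted p 0.179), and Hyal1 375 ± 112 and 216 ± 71.6, a log2 difference of -0.81 (SE 0.29, adjusted p 0.0857).

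**Figure D4:**
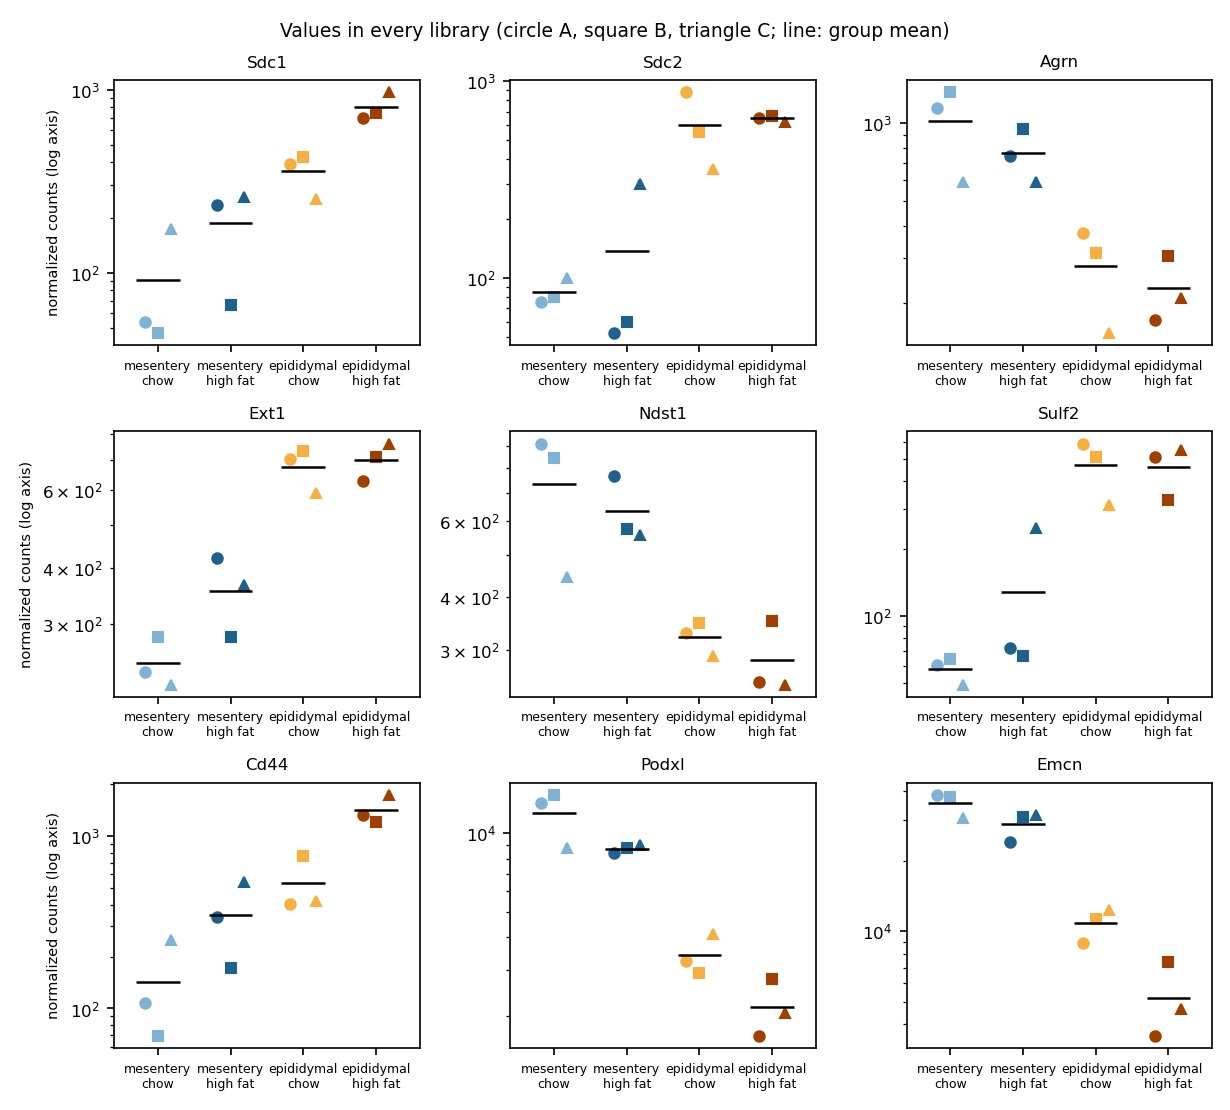
Normalized counts (log axis) in each of the 12 libraries for the 9 glycocalyx genes called in both tissue comparisons, with circles, squares and triangles for replicates A, B and C and a line at the group mean. Sdc1, Sdc2, Ext1, Sulf2 and Cd44 lie higher in all 6 epididymal libraries than in the mesentery libraries of the same diet, and Agrn, Ndst1, Podxl and Emcn lie lower.

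Descriptions number the libraries 50 to 53, 87 and 88, with 1 library numbered 87 or 88 in each group, and the meaning of the numbers is not stated. Each number is shared by 1 mesentery and 1 epididymal library of the same diet and letter. The main tissue tests treat these libraries as independent. Among the libraries numbered 50 to 53, 2 a group, 20 of 40 members were called between tissues on chow and 15 on high fat, where 19.6% and 11.3% of all genes were called. With all libraries these were 14 and 11 members, and 12.8% and 8.34% of all genes. In those libraries the log2 difference of Emcn was -1.92 on chow and -2.42 on high fat, that of Podxl -2.14 and -1.90, and that of Agrn -1.84 and -1.56. For the members that were higher, Sdc1 had 3.02 and 2.69, Sdc2 3.15 and 2.26, and Ext1 1.48 and 1.19. Cd44 had 2.69 and 2.24, Sulf2 3.12 on chow, and Ndst1 -1.37 and -0.93. Leaving out 1 library moved the count of called members most without mesentery replicate A or B on chow, to 9 each, where 7.46% and 8.77% of all genes were called. In mice on high fat it gave 3 without epididymal replicate C (3.27% of all genes), 4 without mesentery replicate B (3.66%) and 7 without mesentery replicate A (5.37%).

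With limma on all 12 libraries, no glycocalyx gene passed the threshold between high fat and chow in either tissue, while DESeq2 called Emcn in epididymal fat. In mesentery limma called 0 of 40 members, where 0.00899% of all genes were called higher and 0.0045% lower. Of the 40, 4 had an unadjusted p under 0.05, against 6.15% of all genes, and edgeR and DESeq2 called 0 members, against 0.0045% and 0.847% of genes called in either direction. In 3 members every high fat library lay above every chow library (Gpc4, Ext1 and Sulf2; 4.47% of all genes) and in 1 below (Ndst2; 5.14% of all genes). The median log2 difference was 0.04 for members and -0.0023 for all genes.

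In mesentery the 4 largest diet differences were those of Cd44, Sdc1, Sulf2 and Gpc6, whose values in each library are given above. Cd44 averaged 142 ± 95.8 normalized counts on chow and 351 ± 186 on high fat, a log2 difference of 1.35 (SE 0.47, adjusted p 0.655). Mesentery replicate C on chow lay above replicate B on high fat, so the groups overlapped. The macrophage sum in these libraries was 1534 to 7572 on chow and 4430 to 23824 on high fat, with 0 of 10 markers called, and 1 of 6 adipocyte markers was called higher. Sdc1 averaged 91.1 ± 71.2 and 186 ± 104, with overlap, a log2 difference of 1.06 (SE 0.53, adjusted p 0.852). Sulf2 averaged 58.0 ± 7.87 and 129 ± 103, a log2 difference of 0.87 (SE 0.44, adjusted p 0.865), without overlap but with replicate C on high fat several times above replicates A and B. Ext1 averaged 245 ± 32.2 on chow and 357 ± 70.8 on high fat and did not pass the test, with a log2 difference of 0.53 (SE 0.20, adjusted p 0.702). Perlecan's gene Hspg2 averaged 1475 ± 465 on chow and 918 ± 181 on high fat, a log2 difference of -0.65 (SE 0.24, adjusted p 0.699).

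In epididymal fat limma again called 0 of 40 members, where 0.418% of all genes were called higher and 0.13% lower on high fat. Of the 40, 5 had an unadjusted p under 0.05, against 6.94% of all genes. EdgeR called 0 members, where it called 0.13% of genes, and DESeq2 called 1, Emcn, where it called 4.03%. Sdc1 and Cd44 lay above chow in every high fat library (6.93% of all genes), and Hs3st1, Podxl and Emcn lay below (6.57%). The median log2 difference was -0.09 for members and 0.10 for all genes. The median over all genes was 0.57 with equal endothelial markers and -0.04 with equal totals, and the share of called genes that were higher was 76.2%, or 94.5% and 63.8% under those scalings.

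**Figure D5:**
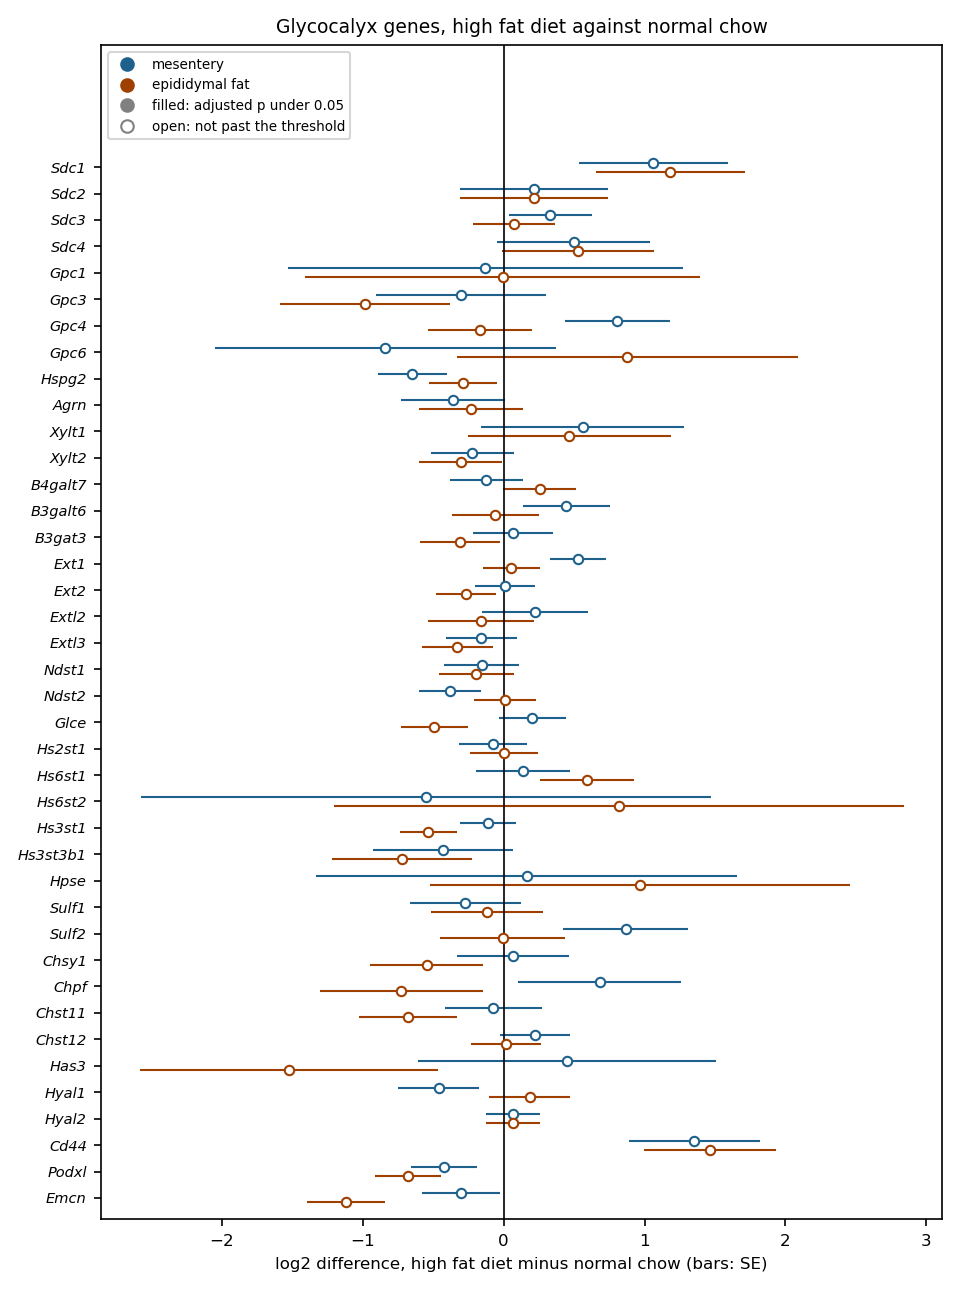
Log2 difference between high fat and chow (x axis, bars are 1 SE) for the 40 tested glycocalyx genes in mesentery and in epididymal fat, from 3 libraries a group. All points are open, since no member reached an adjusted p under 0.05 in limma on all libraries. Cd44 and Sdc1 have the highest values in both tissues, and Has3 and Emcn the lowest in epididymal fat.

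Emcn had the smallest p of the members in epididymal fat, with a mean of 10851 ± 1764 normalized counts on chow and 5193 ± 1971 on high fat. Its log2 difference was -1.12 (SE 0.28, adjusted p 0.132). DESeq2 gave -1.06 with an adjusted p of 0.00199, and edgeR -1.03 with 0.433. Epididymal replicate B on high fat was the highest of its group and the nearest to chow, so leaving it out must enlarge the decrease. The limma value was then -1.40 with an adjusted p of 0.0319, and this call is no support for a diet difference. With equal endothelial markers, whose sum was 70219.7 to 89136 on chow and 41740.4 to 80098 on high fat, it was -0.63 (adjusted p 0.135), beside a median of all genes of 0.57. In the libraries numbered 50 to 53 it was -0.78 (adjusted p 0.402). Podxl averaged 3418 ± 612 and 2164 ± 559, a log2 difference of -0.68 (SE 0.23, adjusted p 0.361), and -0.19 with equal endothelial markers. Hs3st1 averaged 847 ± 70.7 and 585 ± 56.2, a log2 difference of -0.53 (SE 0.20, adjusted p 0.461).

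Cd44 averaged 532 ± 208 normalized counts in epididymal fat on chow and 1421 ± 278 on high fat, a log2 difference of 1.46 (SE 0.47, adjusted p 0.281). Sdc1 averaged 359.6 ± 93.9 and 805 ± 145, a log2 difference of 1.18 (SE 0.53, adjusted p 0.677). Neither passed the test, although the groups did not overlap for either gene. The macrophage and fibroblast sums also did not overlap between these groups, with fibroblast markers at 3475 to 6998 on chow and 18335 to 21382 on high fat. The adipocyte sum went the other way without overlap, at 61832 to 83408 on chow and 6406 to 16116 on high fat, with 2 of 6 markers called lower, as did the smooth muscle and pericyte sum and the lymphatic sum, with 0 markers called. Their part in the member values was not tested. Has3 had the largest absolute log2 difference, -1.52 (SE 1.06, adjusted p 1.00), with replicate B on high fat inside the chow range.

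The diet effect did not differ between the tissues for any member by the test. Limma, edgeR and DESeq2 each called 0 of 40 in the interaction, and 0 had an unadjusted p under 0.05 in limma, against 4.71% of all genes. Of all genes, limma called 0% higher and 0.0045% lower, edgeR 0.0045% and DESeq2 0.873% in either direction. Emcn had an interaction of -0.81 (SE 0.39, unadjusted p 0.0584), that is, a more negative diet difference in epididymal fat. Gpc4 had -0.97 (SE 0.53) and Chpf -1.41 (SE 0.82), both called between tissues on chow alone. The members called on a single diet were not shown to differ between diets.

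Other genes of the same pathways were counted from 7 lists. Of 71 genes listed, 67 were in the table and 64 were tested. In epididymal fat against mesentery 12 were higher and 6 lower on chow, where 7.32% and 5.47% of all genes were called, and 10 higher and 7 lower on high fat, where 4.91% and 3.43% were. Of 12 further proteoglycan cores, 4 were higher and 3 lower on chow, and 3 and 3 on high fat. Of 10 genes that supply sugar and sulfate precursors or the linker, 2 were higher on chow and 1 on high fat. Of 4 more heparan sulfate enzymes 1, Hs3st6, was higher on chow and 0 on high fat, and Hs3st6 passed the filter on low values only through its epididymal libraries, so its call is no support for a difference. Of 11 more chondroitin and dermatan sulfate enzymes 1 was lower on chow and 2 on high fat. Of 10 more hyaluronan genes 2 were higher and 1 lower on chow, and 1 and 1 on high fat. Of 12 lysosomal enzymes that digest these chains, 2 were higher on chow and 5 on high fat. Of 5 more sialomucin and O-glycan genes, 1 was higher and 1 lower on chow, and 0 and 1 on high fat.

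The largest decrease among them was that of Esm1, the gene of endocan, a proteoglycan secreted by endothelial tip cells, with a log2 difference of -4.01 (SE 0.53, adjusted p 0.000291) on chow and -4.81 (SE 0.53, adjusted p 0.000103) on high fat. Thbd, the gene of thrombomodulin, an anticoagulant receptor that can carry chondroitin sulfate, had -2.55 (SE 0.19, adjusted p 3.90e-06) and -2.62 (SE 0.19, adjusted p 3.28e-06). Col15a1, a basement membrane collagen and proteoglycan, had -2.65 (SE 0.31, adjusted p 0.000124) on chow, and Chst15, a chondroitin sulfotransferase, -2.25 (SE 0.24, adjusted p 9.58e-05) on high fat. Among those higher on chow were Lyve1, the lymphatic hyaluronan receptor, with 5.23 (SE 0.60, adjusted p 0.000102), and Tnfaip6, which modifies hyaluronan in inflammation, with 3.14 (SE 0.69, adjusted p 0.00953). Hs3st6, a 3-O-sulfotransferase, had 0 reads in all mesentery libraries on chow and averaged 26.2 normalized counts in epididymal fat. On high fat the highest were Lum, the gene of lumican, with 6.07 (SE 0.37, adjusted p 6.73e-07), Tnfaip6 with 4.48 (SE 0.69, adjusted p 0.00149) and Dcn, the gene of decorin, with 2.76 (SE 0.41, adjusted p 0.00109). Lumican and decorin are small proteoglycans typical of fibroblasts, whose markers were 8 of 8 higher in the same comparison. Lyve1 is itself one of the lymphatic markers, of which 4 of 6 were higher and 1 lower on chow.

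The diet called 0 of these 64 genes in mesentery and 3 in epididymal fat, all higher, where 0.418% of all genes were called higher, and the interaction called 0. Lum rose by 2.30 (SE 0.37, adjusted p 0.0135) on the log2 scale. The lysosomal enzymes Hexa, a hexosaminidase subunit, and Gusb, beta-glucuronidase, rose by 1.82 (SE 0.27, adjusted p 0.00837) and 1.42 (SE 0.21, adjusted p 0.00837). All 12 lysosomal enzymes had log2 differences above 0 there, 2 of them called, as did 12865 of all 22238 genes. Their median was 0.54, against 0.10 for all genes. With equal endothelial markers the median of all genes was 0.57, and that of these enzymes is not given. In the same comparison 1 of 10 macrophage and 2 of 8 fibroblast markers were called higher and 2 of 6 adipocyte markers lower, and their part in these values was not tested.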

How the data were processed

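Reads were processed with STAR 2.7.9a, featureCounts of Subread and DESeq2 1.34.0 on build mm39, per the submitters' processing notes; the gene annotation and strand setting are not given in the sources used here. The deposited values are a normalized count signal per gene and, judged from the values themselves, equal whole reads divided by 1 size factor per library. 100% of values came out as whole reads (tolerance 1e-06), so edgeR and DESeq2 could be run as alternatives.

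Groups were taken from the sample titles. Values were tested as log2(normalized count + 1) with limma 3.58.1 (R 4.3.3, lmFit and eBayes with trend, 4 group means), on 22238 genes with a mean of at least 10, with Benjamini-Hochberg adjustment over all of them within a comparison; a gene was called at an adjusted p under 0.05, two-sided. Fold changes are on that log2 scale and compare means of logs, so for low genes they can differ from the ratio of group means in either direction. Hpse on high fat had means of 33.7 in mesentery and 101 in epididymal fat beside a 9.52-fold difference. Gpc6 in mesentery had means of 25.2 on chow and 25.9 on high fat beside a log2 difference of -0.84. Mean ± SD is over the 3 libraries. Alternatives were a pseudocount of 5, no filter, scaling to equal totals or to equal geometric means of 10 endothelial markers, edgeR 4.0.16 (quasi-likelihood) and DESeq2 1.42.0. Further ones were a block, the number range as a covariate, the libraries numbered 50 to 53 alone, and each library left out. The block was the library number for tissue and interaction and the replicate letter for diet. Exon lengths per gene came from GENCODE M21, a build other than the authors'. Scripts were tested on simulated data.

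The members and lists were chosen with earlier results of these data known. Values in every library are given for members called in both tissue comparisons or by diet, and for the 4 members with the largest diet difference in each tissue; other members have group means, and a few others have library values chosen after they were seen. Of other pathway genes, up to 3 higher and 3 lower per tissue comparison, and those called by diet, are named.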

Additional observations from a re-analysis of the deposited data

How the results depend on the processing

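Of 375 alternative values for the 25 calls of members between tissues (14 on chow and 11 on high fat), 322 kept the call, 53 lost it and 0 reversed, and 11 results kept it in every alternative. With the library number as a block, 16 members were called between tissues on chow and 11 on high fat, with 2 genes in the interaction. The share of all genes called between tissues with this block is not given here, so the member counts are not compared with it. For the diet comparisons the block was the replicate letter, which joins libraries of different numbers, and 0 members were called in each. No call on a member listed above was lost. Whether the numbers pair the libraries was checked by correlating deviations from the group means between tissues. Libraries of the same number correlated at 0.027, 0.530 and 0.583 on chow and -0.149, 0.146 and -0.115 on high fat. Those of different numbers ranged from -0.676 to 0.521 on chow and from -0.229 to 0.227 on high fat. These values do not settle whether the libraries are paired, and the block is given here alone. Members called in epididymal fat by diet numbered 0, 1 in DESeq2 and 0 to 1 when a library was left out, 1 without replicate B on high fat. Members called between tissues ranged from 9 to 17 on chow and from 3 to 12 on high fat when 1 library was left out, from 14 and 11. Over all genes, the diet in mesentery gave 3 genes, and 1 in edgeR, 154 in DESeq2, 20 in the libraries numbered 50 to 53 and 1 to 37 with a library left out. The diet in epididymal fat gave 122, and 326 with equal endothelial markers, 29, 546, 31 and 23 to 168 in the same order. Tissue on chow gave 2843, 4349 in the libraries numbered 50 to 53 and 1516 to 3278 with a library left out. Tissue on high fat gave 1854, 4155 with equal endothelial markers, 1021 in edgeR, 2931 in DESeq2 and 728 to 1741 with a library left out. The interaction gave 1, 2 with equal endothelial markers, 133 in DESeq2, 11 in the libraries numbered 50 to 53 and 1 to 20 with a library left out. The causes of these shifts were not tested, beyond the fewer libraries in those left out. Depth limits the low members: Has2, Hs6st2, Hpse, Gpc1 and Gpc6 had libraries at or near 0 reads.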
